A study of Mus musculus with 24 samples.

Results

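The intestinal carboxylesterases described here are 9 genes: Ces1d, Ces1f, Ces1g, Ces2a, Ces2b, Ces2c, Ces2e, Ces2f and Ces2g. They were chosen by gene symbol, as the lines of the estimated count table that carry one of these names, and they are 9 of the 37620 genes in that table. All 9 passed the filter on low counts, which kept 16552 genes. The symbols were picked with earlier results of these data known, so the values of the 9 genes are a description. An adjusted p beside one of them is that gene's own call in a test across all 16552 genes.

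The study sequenced polyadenylated RNA from the crypts of the jejunum of 24 mice, 1 library per mouse and 3 mice in each of 8 groups. The double knockout (ApccKO;NlecKO) carried conditional knockouts of both Apc and Nle1, the Notchless gene. The ApccKO mice carried the Apc knockout with Nle1 intact, the NlecKO mice the Nle1 knockout with Apc intact, and the Control mice are labelled only as Control. All mice, Control included, were 5 to 10 weeks old, received tamoxifen at 56 mg/kg into the peritoneum on 3 consecutive days, and gave crypts at 24 h (day 1) or 48 h (day 2) after induction. The sources used here give neither the Cre driver nor the deleted exons. Crypts are a mixture of cell types, and in such bulk RNA fewer cells of a type and less RNA per cell cannot be told apart.

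Carboxylesterases are serine hydrolases of the lumen of the endoplasmic reticulum that cleave esters, amides and thioesters. In the liver and the small intestine they act on drugs and other foreign esters, on prodrugs, and on endogenous lipids such as acylglycerols and cholesteryl esters. The mouse family was expanded by tandem duplication, and its Ces1 and Ces2 subfamilies lie in separate gene clusters on the same chromosome.

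In the GENCODE M21 annotation the family has 20 genes on chromosome 8. The cluster of Ces1 genes and Ces5a holds 9 of them, 3 of which belong to the 9 genes described here, on the minus strand. The cluster of Ces2, Ces3 and Ces4a genes holds 11, of which 6 are described here, on the plus strand, and Ces2e, Ces2f and Ces2g follow one another there. RefSeq promoters, from 250 bases before to 50 bases after the gene start, were matched for 6 of the 9 genes. The 5 Ces2 promoters are shown because 4 of them share an 8-base run, written in capitals, and because these genes include the one raised most in the double knockout, Ces2f, and one that was not called there, Ces2a.
Ces2a, chr8:104733753-104734052, plus strand, GRCm38.p6: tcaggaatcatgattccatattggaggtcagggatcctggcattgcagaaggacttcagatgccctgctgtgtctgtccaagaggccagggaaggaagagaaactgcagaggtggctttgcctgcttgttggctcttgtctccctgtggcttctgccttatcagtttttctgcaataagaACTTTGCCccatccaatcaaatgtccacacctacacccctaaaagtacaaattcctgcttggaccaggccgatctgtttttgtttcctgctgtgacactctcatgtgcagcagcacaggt
Ces2c, chr8:104846818-104847117, plus strand, GRCm38.p6: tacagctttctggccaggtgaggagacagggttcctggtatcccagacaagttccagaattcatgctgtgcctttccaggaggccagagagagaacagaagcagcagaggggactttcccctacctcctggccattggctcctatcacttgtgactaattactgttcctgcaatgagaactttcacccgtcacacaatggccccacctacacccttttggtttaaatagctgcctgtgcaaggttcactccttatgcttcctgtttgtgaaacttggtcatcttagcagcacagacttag
Ces2e, chr8:104926010-104926309, plus strand, GRCm38.p6: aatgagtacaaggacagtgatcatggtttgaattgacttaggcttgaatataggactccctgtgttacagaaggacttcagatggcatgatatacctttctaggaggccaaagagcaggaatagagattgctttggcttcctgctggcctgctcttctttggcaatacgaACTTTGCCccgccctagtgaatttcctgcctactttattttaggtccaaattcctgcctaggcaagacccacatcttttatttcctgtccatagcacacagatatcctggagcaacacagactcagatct
Ces2f, chr8:104947106-104947405, plus strand, GRCm38.p6: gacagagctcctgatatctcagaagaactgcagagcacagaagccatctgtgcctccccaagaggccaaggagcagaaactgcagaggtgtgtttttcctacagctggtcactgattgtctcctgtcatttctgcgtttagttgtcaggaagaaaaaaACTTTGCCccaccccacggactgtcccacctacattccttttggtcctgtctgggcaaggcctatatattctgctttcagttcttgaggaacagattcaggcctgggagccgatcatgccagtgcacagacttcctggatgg
Ces2g, chr8:104961468-104961767, plus strand, GRCm38.p6: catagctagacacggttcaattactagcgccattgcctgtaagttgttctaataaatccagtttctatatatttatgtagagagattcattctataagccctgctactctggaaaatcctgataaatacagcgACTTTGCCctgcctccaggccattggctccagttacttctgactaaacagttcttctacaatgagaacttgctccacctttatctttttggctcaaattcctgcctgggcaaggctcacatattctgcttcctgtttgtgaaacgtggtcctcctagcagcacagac

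The run ACTTTGCC starts 70 bases before the start of Ces2a, 80 before that of Ces2e, 92 before that of Ces2f and 117 before that of Ces2g, each time on the strand of the gene. It was chosen after these promoters had been read, and it is found, on either strand, in 310 of 32851 RefSeq promoters of the same length (0.944%). The longest run shared by any pair of the 6 promoters was 19 bases, between Ces2c and Ces2g. Motifs of known factors were searched on both strands. The letters AGATAA, bound by GATA factors, were in the promoters of Ces1g and Ces2g and in 11.2% of all promoters. TTTATG, bound by CDX factors, was in the same pair of promoters and in 11.9% of all. AGGTCA, the half-site of nuclear receptors, was in that of Ces2a and in 16.3% of all, and TATAAA was in that of Ces1g and in 13.6% of all. GTTAAT (HNF1, 7.1% of all promoters), CAAAGTCCA (HNF4, 0.475%) and ATCAAAG (TCF and LEF factors, 3.73%) were in none of the 6 windows; both of the last share CAAAG with the other strand of the 8-base run. A match describes letters and does not show that a factor binds there.

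The libraries held 17.86 to 26.47 M estimated counts. Nle1 had 4.81 to 12.3 CPM (counts scaled to a common library size, after TMM normalisation) in the 12 libraries with the Nle1 knockout and 20.1 to 39.9 CPM in the other 12, so the labels and the Nle1 transcript went together. Total Apc counts did not differ by genotype at an adjusted p of 0.05, and since the deleted part of Apc is not given this checks nothing. In 3 Apc-lost libraries of day 1 enterocyte transcripts were high for their group. Lct, the brush border enzyme lactase, had 455 and 295 CPM in ApccKO replicates 2 and 3, against 64.1 CPM in replicate 1, and 445 CPM in double knockout replicate 3, against 93.4 and 82.7 CPM in replicates 1 and 2. Results that rest on these 3 libraries are given with and without them. Leaving them out keeps 1 ApccKO library on day 1, which is then assumed to vary like the other groups. In the submitters' codes the Apc-lost libraries follow one another with no Apc-intact library between them, so that a batch along the codes and Apc loss cannot be told apart. All libraries of day 1 also come before all libraries of day 2 in these codes. Such a batch and the day cannot be told apart either.

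Read sharing among paralogues can bear on some of the 9 genes. Of the 31-base words in the Ces2c transcripts of GENCODE M21, 50.1% also occur in another gene, and 42.9% occur in the pseudogene Ces2d-ps. The share was 30.2% for Ces2a, with 24.7% in Gm7208, and 25.2% for Ces2b. It was 3.36% to 9.83% for the other 6 genes, among them 5.64% for Ces2f and 9.83% for Ces2g. By this measure the levels of Ces2c, Ces2a and Ces2b are more open to read sharing than those of Ces2e, Ces2f and Ces2g. The annotation used for counting is not stated, and the effect of sharing on the levels was not tested.

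Levels between genes were compared in TPM, which is scaled per transcript length. In Control crypts of day 1 Ces2e was highest, at 455 ± 134 TPM (SD, n = 3), followed by Ces2c at 328 ± 172, Ces2a at 240 ± 142 and Ces1f at 157 ± 35.1 TPM, and the ranges of neighbours in this order overlapped. Ces2g, at 71.2 ± 14.6 TPM, lay below Ces1f in every library, and Ces1g, at 11.8 ± 2.52 TPM, below Ces2g. Ces1d (7.81 ± 2.86 TPM) overlapped with Ces1g above it and with Ces2b (3.96 ± 1.01 TPM) under it. Ces2f was the lowest by far, at 0.608 ± 0.205 TPM. The order and the separations were the same in Control crypts of day 2. Of the 11 other family genes on the list Ces1b, Ces1c, Ces1e, Ces2d-ps, Ces2h and Ces3a passed the filter; Ces1a, Ces1h, Ces3b, Ces4a and Ces5a did not and reached at most 0.69 CPM in any library.

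**Figure D1:**
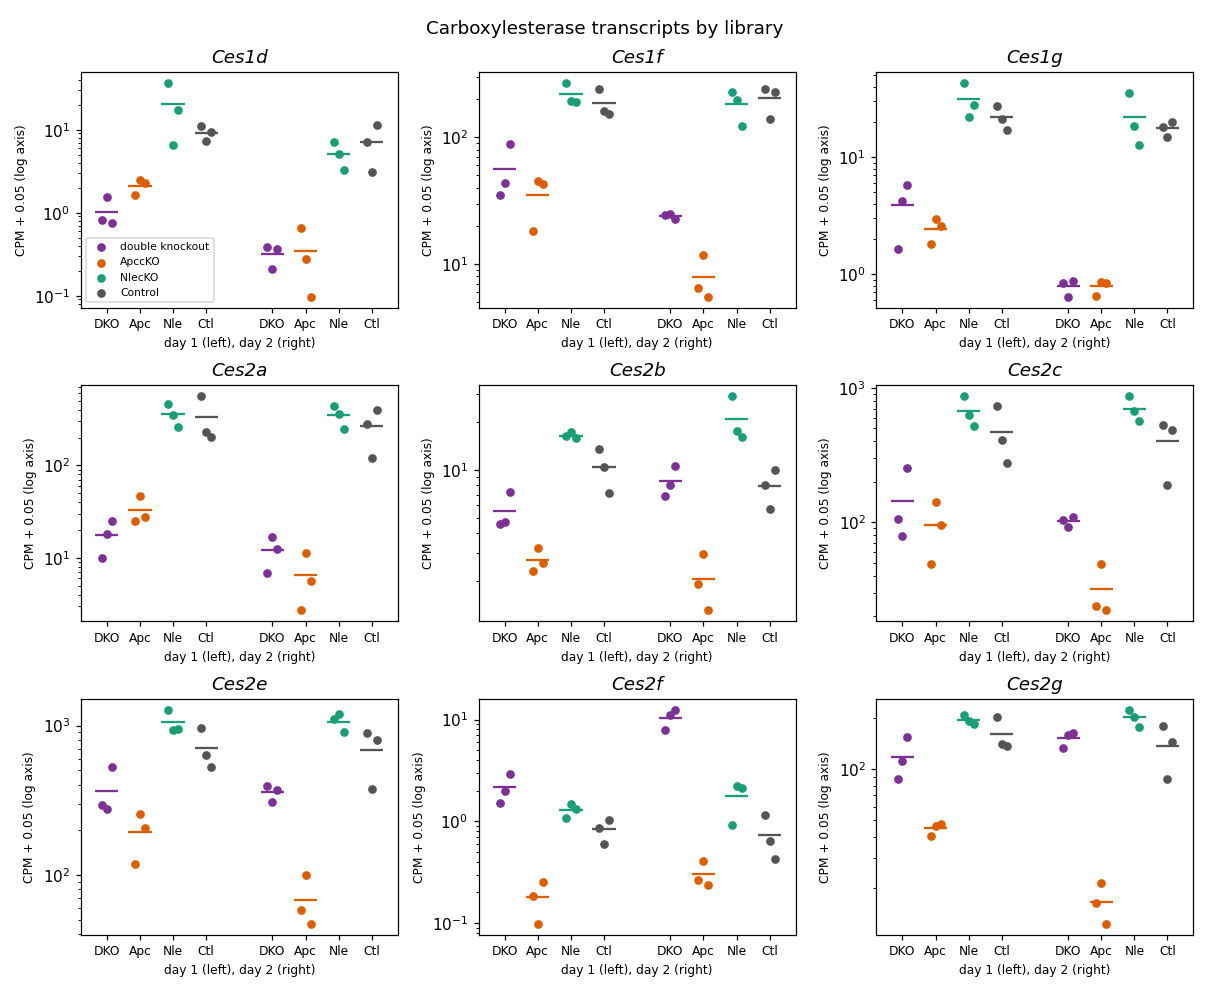
CPM plus 0.05, on a log axis, for each of the 9 genes in each library; points are mice, bars are means of 3 mice, and the groups run double knockout (DKO), ApccKO (Apc), NlecKO (Nle) and Control (Ctl), with day 1 on the left and day 2 on the right of each panel. Each ApccKO library lies below each Control library of its day in all 9 panels, and Ces2f is higher in the 3 double knockout libraries of day 2 (7.77 to 12.5 CPM) than in the other 21. How many of all genes separate the groups in this way was not counted.

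Apc loss with Nle1 present lowered all 9 genes on both days, and on day 2 to a few percent of the Control level for several of them. Ces2a, a Ces2 enzyme that acts on acylglycerols in the mouse liver, fell furthest. It had 2.65, 11.2 and 5.58 CPM in ApccKO crypts of day 2, against 280, 121 and 398 CPM in Control crypts. Its log2 fold change was -5.34 ± 0.64 (SE; adjusted p 2.3e-06, edgeR quasi-likelihood test), or 2.47% of Control. The 3 Ces1 genes followed. Ces1f had 6.42, 11.8 and 5.44 CPM in ApccKO crypts of day 2, against 242, 139 and 226 CPM in Control crypts, a log2 fold change of -4.66 ± 0.45. Ces1g, whose product in mouse liver affects lipid secretion, changed by -4.41 ± 0.47, and Ces1d, the triacylglycerol hydrolase of mouse liver and fat, by -4.19 ± 0.72. No library of ApccKO crypts reached the lowest Control library for any of these genes. Here and below, the share of all genes whose groups did not overlap was not counted.

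Among the other Ces2 genes the log2 fold changes of day 2 were -3.66 ± 0.55 for Ces2c, a mouse intestinal enzyme that cleaves acylglycerols, -3.35 ± 0.39 for Ces2e, -3.03 ± 0.26 for Ces2g, -1.90 ± 0.32 for Ces2b and -1.14 ± 0.50 for Ces2f. The adjusted p of these 5 genes ran from 2.5e-08 for Ces2g to 0.02 for Ces2f. The call for Ces2f rests on few counts. It had 5, 8 and 4 estimated counts in ApccKO crypts of day 2, against 19, 16 and 7 in Control crypts, and was not called without ApccKO replicate 1 (adjusted p 0.065), ApccKO replicate 3 (0.072) or Control replicate 1 (-0.75, adjusted p 0.14). In limma on log2(TPM + 1) it was -0.30 (adjusted p 0.2). That fit says little here, since the means were 0.236 TPM in ApccKO and 0.538 TPM in Control crypts. At such levels the added 1 shrinks any change.

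On day 1 the fall was already present and mostly smaller. The log2 fold changes ranged from -3.32 ± 0.58 for Ces2a and -3.14 ± 0.41 for Ces1g to -1.83 ± 0.24 for Ces2g, with adjusted p from 8.3e-06 to 0.0045. Without the 3 libraries with high enterocyte transcripts, Ces1d had a value of -2.44 with an adjusted p of 0.056, and the other 8 genes were still called lower. All 9 genes were called lower on each day, while 25.0% of all genes tested were called lower on day 1 and 29.4% on day 2. The balance over all genes differed between fits that differ in scale and test. edgeR called 4088 higher and 4138 lower on day 1 and 4839 higher and 4869 lower on day 2. By limma on log2(TPM + 1) these were 4854 and 2842 on day 1 and 6153 and 3382 on day 2, with a median over all genes of 0.15 on day 2. The median log2 fold change of the 9 genes was -2.10 on day 1 and -3.66 on day 2, beside medians over all genes of -0.01 and 0.02. Of the 6 other family genes tested 5 were lower on day 1, Ces1b at -0.74 ± 0.49 (adjusted p 0.16) being the exception, and 6 on day 2. The day 1 call of Ces2d-ps was lost without ApccKO replicate 1 (-1.27, adjusted p 0.057). Ces1e, which lies between Ces1d and Ces1f, had 0.694, 0.722 and 0.93 CPM in ApccKO crypts of day 2, against 47.1, 38.2 and 44 CPM in Control crypts (log2 fold change -5.62 ± 0.56, adjusted p 1.5e-07).

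Markers of several cell types differed in the same comparison. Of all genes tested 24.7% were called higher and 25.0% lower on day 1, and 29.2% and 29.4% on day 2. Stem cell markers were called higher in ApccKO than in Control crypts for 10 of 10 genes on day 1 and 9 of 10 on day 2, with sums of 5020 to 5580 CPM in ApccKO and 2100 to 2780 CPM in Control crypts of day 2. Goblet cell markers were called lower for 5 of 8 genes on each day, with sums of 2370 to 3150 CPM in ApccKO and 11400 to 13400 CPM in Control crypts of day 2. Immune cell markers were called lower for 7 of 10 on each day, with sums of 206 to 337 CPM in ApccKO and 757 to 1200 CPM in Control crypts of day 2. The part of these cell types in the fall of the 9 genes was not tested.

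**Figure D2:**
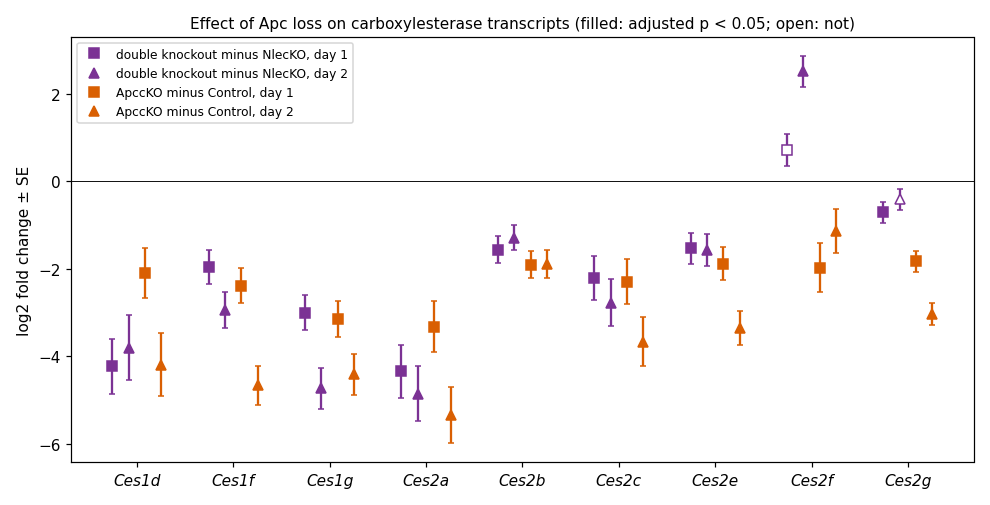
Log2 fold change (± SE, 3 mice per group) of each gene on Apc loss, with Nle1 lost as well (purple, double knockout minus NlecKO) and with Nle1 present (orange, ApccKO minus Control), on day 1 (squares) and day 2 (triangles). Filled symbols have an adjusted p under 0.05; Ces2f stands alone above 0 with Nle1 lost, at 0.71 on day 1 and 2.51 on day 2.

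Nle1 loss with Apc intact changed few of the genes. On day 1 none was called by edgeR, DESeq2 or limma, and Ces1d and Ces2b had an unadjusted p under 0.05 (0.041 and 0.032). On day 2 Ces2b and Ces2f were higher in NlecKO crypts. Ces2b had 29, 17.4 and 16.1 CPM in NlecKO crypts, against 7.97, 5.64 and 9.91 CPM in Control crypts, with no overlap (log2 fold change 1.40 ± 0.29, adjusted p 0.0028). Ces2f had 0.867, 2.2 and 2.07 CPM in NlecKO crypts, against 1.11, 0.593 and 0.375 CPM in Control crypts, where the lowest NlecKO library lay below the highest Control library (1.24 ± 0.40, adjusted p 0.023). That call was lost on leaving out Control replicate 2 or 3 (adjusted p 0.091 and 0.11) or NlecKO replicate 2 or 3 (0.099 and 0.1), and with only the NlecKO and Control libraries of day 2 in the fit (0.15). In that fit Ces2b had an adjusted p of 0.054. Ces2c and Ces2e, not called, had all 3 NlecKO libraries above the 3 Control libraries, a separation that was not counted over all genes.

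These 2 calls of 9 stand beside 7.33% of all genes called higher and 8.26% lower on day 2, and the 0 of 9 on day 1 beside 0.870% called higher and 1.61% called lower. By limma on log2(TPM + 1), 472 genes were called higher and 2018 lower on day 2, against 1214 and 1367 by edgeR, and 41 and 236 on day 1, against 144 and 267. The median log2 fold change of the 9 genes was 0.51 on day 1 and 0.55 on day 2, beside medians of -0.00 and 0.00 over all genes. Among the other family genes Ces3a was higher on day 2 (1.18 ± 0.36, adjusted p 0.023), a call lost in 4 of 14 alternatives. These included the fits without Control replicate 2 (0.11), NlecKO replicate 1 (0.07) or NlecKO replicate 2 (0.06).

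Nle1 loss with Apc lost raised 6 of the 9 genes on day 2, and Ces2f by far the most. Ces2f had 7.77, 11 and 12.5 CPM in double knockout crypts, against 0.217, 0.361 and 0.186 CPM in ApccKO crypts. These values come from 187, 205 and 240 estimated counts in double knockout libraries and 5, 8 and 4 in ApccKO libraries. The fold was 29.8 (log2 fold change 4.90 ± 0.43, adjusted p 5.2e-08), and leaving out any 1 library of the 2 groups gave 4.75 to 5.13. The double knockout libraries of day 2 also lay above every library of the other 7 groups, of which the highest had 2.88 CPM, in double knockout crypts of day 1.

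Ces2g, the neighbour of Ces2f on the chromosome, had 132, 159 and 162 CPM in double knockout crypts of day 2, against 16.3, 21.3 and 12.3 CPM in ApccKO crypts (log2 fold change 3.18 ± 0.26, adjusted p 1.2e-07). The double knockout values lay inside the range of Control crypts of that day, which was 87.7 to 178 CPM. Ces2e, on the other side of Ces2f, had 395, 309 and 370 CPM in double knockout crypts, against 57.6, 98.8 and 46.7 CPM in ApccKO crypts (2.40 ± 0.38, adjusted p 9.1e-05), and so lay apart from ApccKO and near the lowest Control library, at 374 CPM. Ces2b (2.01 ± 0.32, adjusted p 5.6e-05), Ces2c (1.69 ± 0.51, adjusted p 0.016) and Ces1f (1.58 ± 0.42, adjusted p 0.0063) were also higher. For Ces2c the call was lost without ApccKO replicate 1 (adjusted p 0.07) or ApccKO replicate 3 (0.072).

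The remaining 3 genes were not called. Ces2a had 6.9, 16.8 and 12.4 CPM in double knockout crypts of day 2, against 2.65, 11.2 and 5.58 CPM in ApccKO crypts, and the groups overlapped (0.88 ± 0.58, adjusted p 0.25). Ces1g had 0.79, 0.59 and 0.831 CPM in double knockout crypts, against 0.607, 0.812 and 0.791 CPM in ApccKO crypts (0.01 ± 0.57, adjusted p 0.99). For Ces1d, at 0.332, 0.161 and 0.312 CPM in double knockout crypts and 0.607, 0.226 and 0.0465 CPM in ApccKO crypts, the value was -0.09 ± 1.01 (adjusted p 0.94), an error too wide to show a 2-fold change. The errors of Ces2a and Ces1g do not exclude a 2-fold change either. Ces1g had 46 estimated counts in all in double knockout and 49 in ApccKO crypts of day 2. Of all genes tested 19.5% were called higher and 15.4% lower in this comparison. This balance turned between the fits, which differ in scale and test. edgeR called 3221 higher and 2554 lower, and limma on log2(TPM + 1) called 1460 higher and 3836 lower. The cause was not tested. The median log2 fold change was 1.69 for the 9 genes and 0.05 over all genes. Of the 6 other family genes Ces1c was higher, with 2.49, 1.02 and 1.09 CPM in double knockout crypts, against 0.39, 0.677 and 0.419 CPM in ApccKO crypts (1.48 ± 0.41, adjusted p 0.0035; 0.05 without double knockout replicate 1, and not called in limma on TPM, 0.092).

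On day 1 the double knockout was higher than ApccKO for 3 of the 9 genes, beside 5.87% of all genes called higher and 4.77% lower (972 and 790 genes, against 464 and 843 by limma on TPM). Ces2f had 1.47, 1.96 and 2.88 CPM in double knockout crypts, against 0.136, 0.0481 and 0.206 CPM in ApccKO crypts, from 3, 1 and 4 estimated counts in ApccKO (3.28 ± 0.51, adjusted p 6.6e-05). Ces2g had 87.8, 112 and 154 CPM in double knockout crypts, against 40.7, 46.6 and 47.8 CPM in ApccKO crypts (1.39 ± 0.24, adjusted p 0.0014). Neither pair of groups overlapped, and the share of all genes without overlap was not counted. Without the 3 libraries with high enterocyte transcripts the values were 2.96 (adjusted p 0.069) for Ces2f and 1.29 (0.19) for Ces2g, so that none of the 9 was called. Ces2b, at 1.01 ± 0.32 (adjusted p 0.041), was not called without ApccKO replicate 1, 2 or 3 (0.15, 0.06 and 0.12) or double knockout replicate 3 (0.23). Ces1d, not called, went the other way without overlap, at 0.693 to 1.48 CPM in double knockout and 1.59 to 2.41 CPM in ApccKO crypts. Ces2a, not called either, was at -1.23 to -0.56 with 1 library left out. The median was 0.66 for the 9 genes and 0.02 over all genes.

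**Figure D3:**
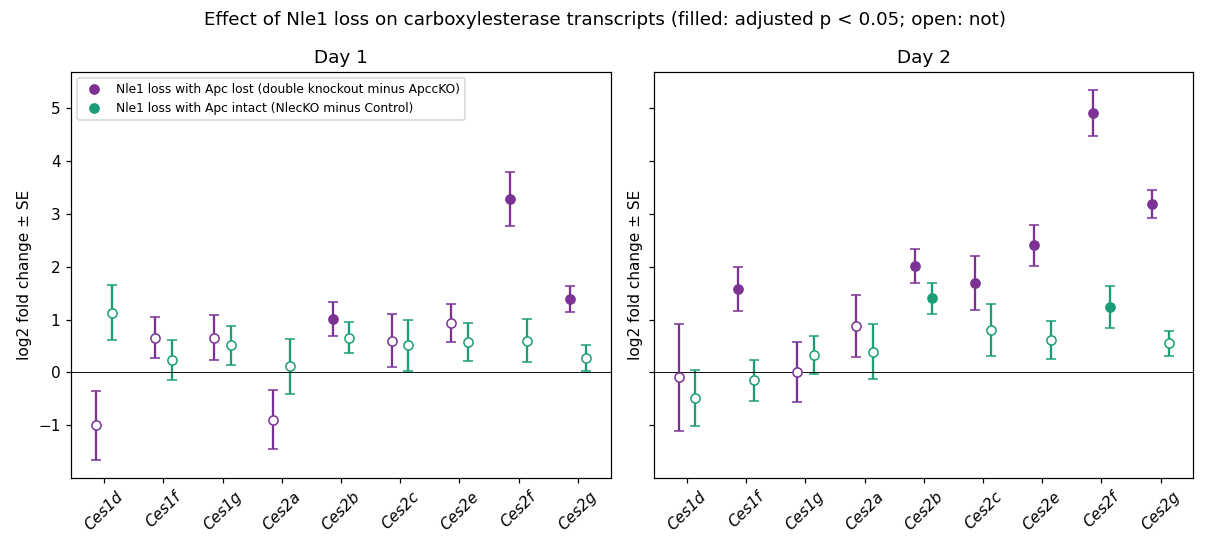
Log2 fold change (± SE, 3 mice per group) of each gene on Nle1 loss, with Apc lost (purple, double knockout minus ApccKO) and with Apc intact (green, NlecKO minus Control), on day 1 (left) and day 2 (right). Filled symbols have an adjusted p under 0.05; on day 2 the purple values of Ces2f (4.90), Ces2g (3.18) and Ces2e (2.40) stand above their green values (1.24, 0.55 and 0.62).

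Whether the effect of Nle1 loss differed with the state of Apc was tested as an interaction, the difference of the 2 effects. On day 2 it was called for Ces2f (3.65 ± 0.60, adjusted p 8e-04), Ces2g (2.62 ± 0.34, adjusted p 0.00032) and Ces2e (1.78 ± 0.51, adjusted p 0.049). These 3 of 9 stand beside 3.29% of all genes called higher, and the median was 0.88 for the 9 genes and 0.04 over all. The calls for Ces2f and Ces2g held in all 20 alternative fits, with adjusted p of at most 0.0086 and 0.0074. The one for Ces2e did not: it passed in 5 of 20 alternatives. It was lost in 10 of the 12 fits that leave out 1 library, with adjusted p of 0.067 to 0.13, namely all but those without ApccKO replicate 2 or Control replicate 2. It was also lost with DESeq2 size factors (0.054), with no filter (0.1), with the replicate block (0.078), with only the libraries compared (0.075) and by limma on TPM (0.053). Ces1f had 1.73 ± 0.56 (adjusted p 0.081), and passed the threshold without ApccKO replicate 2 (2.14, 0.046), without the 3 libraries of day 1 (0.029) and in DESeq2 (0.014). On day 1 none of the 9 was called, and 2 genes of 16552 were (0.0121%); Ces2f had 2.67 ± 0.68 (adjusted p 0.084; 0.0086 in DESeq2) and Ces2g 1.11 ± 0.33 (0.45). The unadjusted p was under 0.05 for Ces1d too (-2.13 ± 0.83, unadjusted p 0.015). Outside the 9 genes Ces1c was called on day 2 (1.94 ± 0.51, adjusted p 0.02), a call lost in 5 of 20 alternatives (adjusted p up to 0.084). Among them were those without ApccKO replicate 1 or 3 (0.066 and 0.057), double knockout replicate 1 (0.083) or Control replicate 3 (0.054). This comparison shares its ApccKO and Control libraries with those above.

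Set against NlecKO, the double knockout was lower for 8 of the 9 genes on day 1 and for 7 on day 2, beside 24.4% and 22.2% of all genes called lower, with medians of -1.96 and -2.77 for the 9 genes and 0.04 and 0.05 over all. Over all genes, limma on log2(TPM + 1) called 5516 higher and 2845 lower on day 1, against 4674 and 4034 by edgeR, and 5096 and 2601 on day 2, against 4240 and 3680, with medians of 0.13 and 0.14. Ces2a was again among the most lowered, with 6.9, 16.8 and 12.4 CPM in double knockout crypts of day 2, against 439, 360 and 246 CPM in NlecKO crypts (log2 fold change -4.85 ± 0.62, adjusted p 1.1e-05), and Ces1g had -4.73 ± 0.47. Ces2f went the other way, with 7.77, 11 and 12.5 CPM in double knockout crypts, against 0.867, 2.2 and 2.07 CPM in NlecKO crypts (2.51 ± 0.35, adjusted p 8.5e-06), beside 25.6% of all genes called higher on that day. On day 1, when 28.2% of all genes were called higher, Ces2f was at 0.71 ± 0.37 (adjusted p 0.095; 0.048 by limma on TPM). Ces2g had -0.71 ± 0.24 on day 1 (adjusted p 0.017; not called without NlecKO replicate 1, 0.055, double knockout replicate 1, 0.096, or double knockout replicate 2, 0.058). On day 2 it had -0.41 ± 0.24 (adjusted p 0.16; 0.011 with only the libraries compared in the fit), with all 3 double knockout libraries under the NlecKO libraries.

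Between the days, no gene of the 9 was called in Control crypts or in NlecKO crypts by edgeR, beside 0.163% and 0.0362% of all genes called in either direction. In Control crypts none of the 9 had an unadjusted p under 0.05, and DESeq2 called none. In NlecKO crypts only Ces1d did (-1.97 ± 0.54, unadjusted p 0.0015), and DESeq2 called 1 of the 9 lower there. In ApccKO crypts 6 of the 9 were lower on day 2 than on day 1, beside 5.49% of all genes called lower (967 higher and 908 lower, against 1003 and 439 by limma on TPM). Ces2g had 16.3, 21.3 and 12.3 CPM on day 2, against 40.7, 46.6 and 47.8 CPM on day 1 (-1.43 ± 0.25, adjusted p 0.0011), Ces1f had -2.14 ± 0.42 (0.0031) and Ces2e -1.51 ± 0.36 (0.013). Without the 3 libraries with high enterocyte transcripts none of the 6 was called, and the values of these 3 genes were -1.30 (adjusted p 0.1), -1.20 (0.26) and -0.81 (0.5). Leaving out ApccKO replicate 2 of day 1 left 2 genes called, as did leaving out replicate 3 of day 2, and leaving out replicate 1 of day 2 left 3. In double knockout crypts Ces2f was higher on day 2 (2.26 ± 0.34, adjusted p 0.00063) and Ces1g lower (-2.23 ± 0.48, adjusted p 0.0074), beside 3.46% and 3.04% of all genes, and both calls held without those libraries.

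The summed level of the 9 genes and its make-up differed between the groups. On day 2 the sum was 417 ± 25.3 TPM in the double knockout, 103 ± 36.6 TPM in ApccKO, 1530 ± 262 TPM in NlecKO and 1170 ± 411 TPM in Control crypts (SD, n = 3 each). On day 1 it was 473 ± 199, 303 ± 106, 1570 ± 206 and 1280 ± 501 TPM in the same order. Ces2e made up the largest mean share in each of the 8 groups. On day 2 Ces2e and Ces2g took 56.4% ± 3.69 and 16.3% ± 2.5 in the double knockout, 48.9% ± 3.84 and 8.5% ± 1.37 in ApccKO, 41.6% ± 4.01 and 5.38% ± 0.408 in NlecKO, and 37.7% ± 1.92 and 5.35% ± 0.771 in Control crypts. Ces2a took 2.03% ± 0.972 in the double knockout, 4.76% ± 1.73 in ApccKO, 14.5% ± 1.51 in NlecKO and 16.1% ± 3.75 in Control crypts. Ces2f took 1.86% ± 0.456 of the sum in the double knockout on day 2 and at most 0.293% in any library of the other 3 groups of that day, and its mean level there, 7.74 TPM, overlapped with that of Ces2a, 8.33 TPM.

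**Figure D4:**
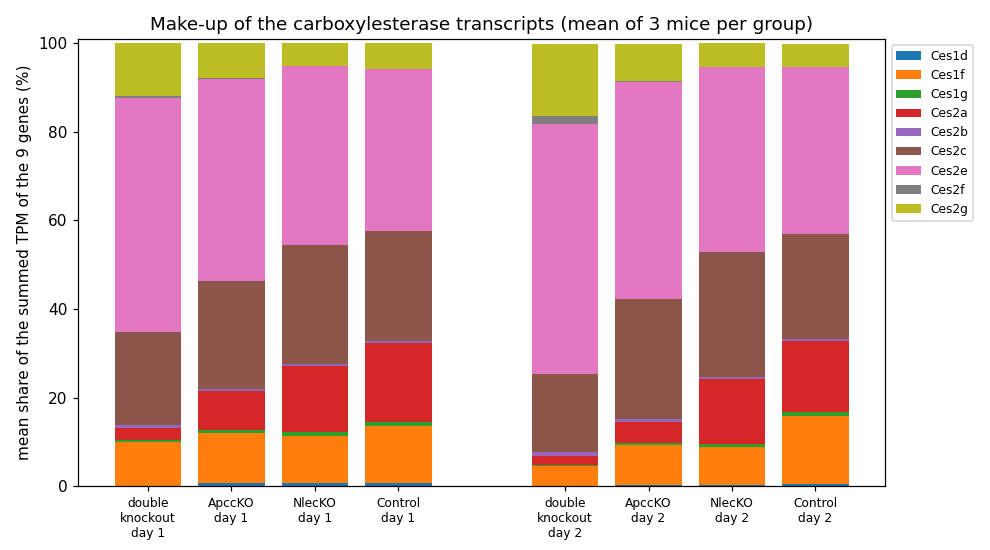
Mean share of each gene in the summed TPM of the 9 genes, in percent, for the 8 groups of 3 mice, with day 1 on the left and day 2 on the right. Ces2e has the largest share everywhere, and on day 2 that of Ces2g is 16.3% in the double knockout and 5.35% in Control crypts, while that of Ces2a is 2.03% and 16.1%.

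Markers of the cell types that a crypt sample can hold moved with several of these results. The summed level of 22 enterocyte markers ranged from 5640 to 8280 CPM in the double knockout, 3160 to 4640 in ApccKO, 26200 to 35000 in NlecKO and 10500 to 32100 in Control crypts of day 2, and from 5410 to 14300, 4020 to 9250, 26200 to 36800 and 12900 to 28900 CPM on day 1. Of the 22 markers 18 were called lower in ApccKO than in Control crypts on day 1 and 22 on day 2, beside 25.0% and 29.4% of all genes. In NlecKO against Control none was called in either direction on either day, beside 2.48% and 15.6% of all genes. None had an unadjusted p under 0.05 there. In the double knockout against ApccKO none was called on day 1, beside 10.6% of all genes, and 2 had an unadjusted p under 0.05. On day 2, 5 of 22 were higher, beside 19.5% of all genes, with a median log2 fold change of 0.99. They included Alpi, the alkaline phosphatase of the brush border (2.47 ± 0.56, adjusted p 0.0023), Cdhr5 (1.43 ± 0.33, adjusted p 0.0029) and Mep1b (1.69 ± 0.52, adjusted p 0.017; 0.079 without ApccKO replicate 1 and 0.078 without ApccKO replicate 3). None of the 22 was called in the interaction on either day, beside 0.0121% of all genes on day 1 and 5.24% on day 2. There 1 on day 2 and 0 on day 1 had an unadjusted p under 0.05. Control replicate 2 of day 2 had the lowest sum of the Control libraries, 10500 CPM, and also their lowest Ces2a (121 CPM), Ces2c (190 CPM), Ces2e (374 CPM) and Ces2g (87.7 CPM). The part of enterocyte number in the results was not tested.

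Goblet cell markers, 8 genes, summed to 5330 to 6760 CPM in the double knockout and 2370 to 3150 CPM in ApccKO crypts of day 2. Of the 8, 6 were called higher and 1 lower, beside 19.5% and 15.4% of all genes. In the interaction of that day 5 of 8 were called higher, beside 3.29% of all genes. Tff3, the trefoil peptide of goblet cells, had 1.38 ± 0.12 (adjusted p 9e-08) in the double knockout against ApccKO. Of 10 stem cell markers 8 were called lower there, with sums of 2230 to 2590 CPM in the double knockout and 5020 to 5580 CPM in ApccKO crypts. Of 10 immune cell markers 4 were called higher, with sums of 202 to 420 CPM and 206 to 337 CPM, and of the 7 stromal and endothelial markers tested 4 were, with sums of 22.4 to 36.7 CPM and 8.93 to 16 CPM. None of 7 Paneth cell markers was called in that comparison or had an unadjusted p under 0.05. The part of these cell types in the results was not tested. Cells of the liver and of fat also express carboxylesterases: Fgb and Adipoq, which define hepatocytes and adipocytes, were at 0 in all 24 libraries, and Alb reached at most 1.82 CPM. The other 5 adipocyte markers reached at most 0.322 CPM, for Retn. The 7 hepatocyte markers together summed to 23.9 to 34 CPM in the double knockout, 11.1 to 14.5 in ApccKO, 4.69 to 6 in NlecKO and 2.62 to 3.48 CPM in Control crypts of day 2, and among them Cyp2e1, at up to 31.2 CPM, and Tat, at up to 6.03 CPM, were highest. Cyp2e1 was higher in the double knockout than in ApccKO crypts on day 2 (1.58 ± 0.28, adjusted p 0.00021) and higher in ApccKO than in Control crypts (2.93 ± 0.34, adjusted p 3.7e-07).

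**Figure D5:**
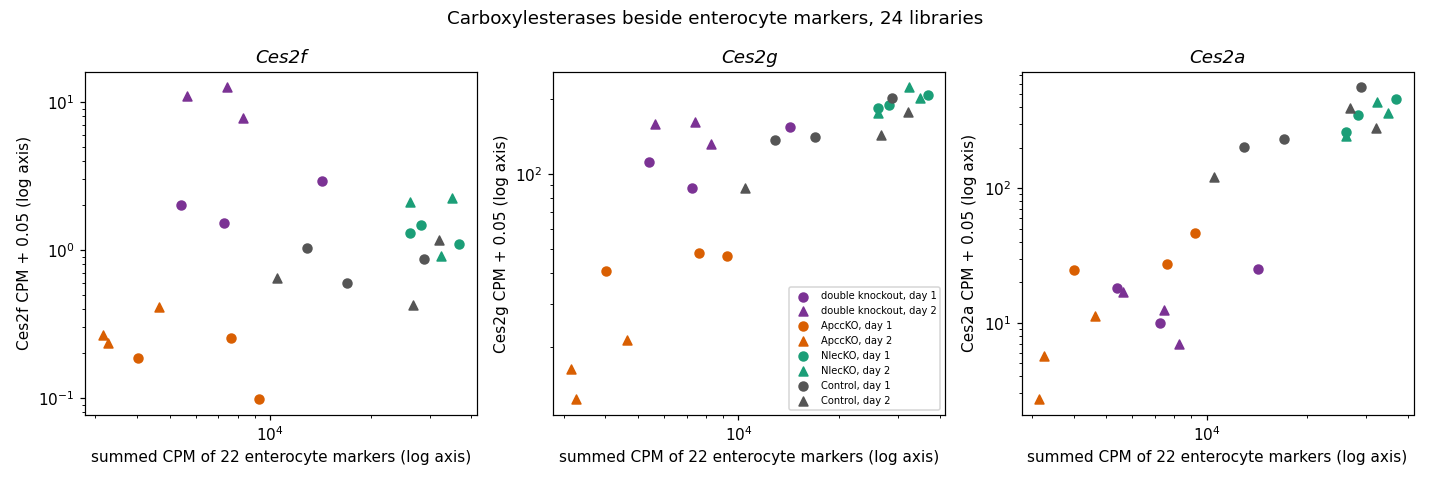
Level of Ces2f, Ces2g and Ces2a (CPM plus 0.05, log axis) against the summed CPM of 22 enterocyte markers (log axis) in each of the 24 libraries; colours are genotypes, circles day 1 and triangles day 2. The double knockout libraries of day 2, at 5640 to 8280 CPM of markers, lie above all other libraries for Ces2f and at 6.9 to 16.8 CPM for Ces2a.

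Genes of related functions were taken from lists that, like the 9 genes, were chosen with earlier results known. Of 17 other ester and lipid hydrolases tested, 12 were lower in ApccKO than in Control crypts on day 2 and none higher. Of all genes 29.4% were called lower and 29.2% higher. Among the lower hydrolases were Naaa, an amidase of N-acylethanolamines (-1.96 ± 0.17, adjusted p 1.5e-08), and Bche, butyrylcholinesterase (-3.98 ± 0.37, adjusted p 9.9e-08). In the double knockout against ApccKO 5 of the 17 were higher and 2 lower on day 2, beside 19.5% and 15.4% of all genes. The higher ones included Abhd5, the coactivator of adipose triglyceride lipase (1.26 ± 0.15, adjusted p 4.3e-06), Nceh1, a cholesteryl ester hydrolase (0.91 ± 0.13, adjusted p 2.2e-05), and Aadac, arylacetamide deacetylase (1.54 ± 0.35, adjusted p 0.0022). None of the 17 was called in the interaction of day 2, beside 5.24% of all genes. There 5 had an unadjusted p under 0.05 and Aadac had 1.41 ± 0.48 (adjusted p 0.095). In NlecKO against Control crypts on day 2, 2 of the 17 were higher and 1 lower, beside 7.33% and 8.26% of all genes. Abhd5 (0.88 ± 0.15, adjusted p 0.00072) and Nceh1 (0.42 ± 0.13, adjusted p 0.033) were the higher ones, and the call of Nceh1 was lost in 5 of 14 alternatives (adjusted p up to 0.44), among them those without Control replicate 1 (0.061), Control replicate 2 (0.17) or NlecKO replicate 3 (0.22). Daglb, a diacylglycerol lipase, was lower (-0.26 ± 0.09, adjusted p 0.041), a call made in 3 of 14 alternatives and lost without any 1 of the 6 libraries (adjusted p 0.065 to 0.16).

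Among 23 genes of triglyceride resynthesis and chylomicron assembly, 20 were lower and 1 higher in ApccKO than in Control crypts on day 2. Of all genes 29.4% were called lower and 29.2% higher there. Mttp, which loads lipid onto apolipoprotein B, had -3.41 ± 0.45 (adjusted p 5.5e-06) and Dgat1, which makes triacylglycerol, had -2.77 ± 0.36 (adjusted p 4.2e-06). In the double knockout against ApccKO 7 were higher and 1 lower on day 2, beside 19.5% and 15.4% of all genes. Cideb, a lipid droplet protein, was at 1.71 ± 0.47 (adjusted p 0.0087). None was called in the interaction of day 2, beside 5.24% of all genes, and 2 had an unadjusted p under 0.05. Of 17 nuclear receptors and intestinal transcription factors, 14 were lower and 1 higher in ApccKO than in Control crypts on day 2. These counts stand beside 29.4% of all genes called lower and 29.2% called higher. Ppara was among the lowered, at -4.13 ± 0.29 (adjusted p 1.7e-09). In the double knockout against ApccKO 9 were higher and 1 lower on day 2, beside 19.5% and 15.4% of all genes. The interaction of day 2 was called, in the higher direction, for 6 of the 17, beside 3.29% of all genes. Among them were Nfe2l2, the oxidative stress factor also named NRF2 (1.13 ± 0.17, adjusted p 0.00083), Gata4 (0.63 ± 0.14, adjusted p 0.012) and Ahr, the aryl hydrocarbon receptor (0.66 ± 0.15, adjusted p 0.012).

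Likeness between genes was taken as the root mean square difference of centred log2 CPM over the 24 libraries, which share their depth and genotype groups, against 10116 genes of at least 5 CPM and Ces2f's 10117. The closest to Ces2c was Mttp (0.26 log2 units, beside a median over all genes compared of 1.64), to Ces1f Pbld2 (0.23, median 1.77), to Ces2e Zg16 (0.25, median 1.38) and to Ces2b Mapre3 (0.29, median 1.18). For Ces2g it was Ms4a10 (0.39, median 1.24), for Ces1g Akr1c19 (0.44, median 2.11), for Ces2a Gstm3 (0.51, median 2.44), and for Ces1d Akr1c19 again (0.68, median 2.13). The nearest gene to Ces2f was Ggta1, at 0.76, beside a median of 1.68. Within the 9 genes, Ces2e was near Ces2c and Ces2g (0.44 each), and Ces2f was 1.30 from Ces2g, the nearest to it, and 2.97 from Ces2a, the farthest.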

How the data were processed

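RNA-seq libraries of jejunal crypts from 24 mice, each mouse a separate sample per the series design, were grouped by the genotype and day of the labels. The authors deposited estimated counts and TPM per gene, for 37620 genes. The submitters' processing notes name kallisto 0.43, the build mm9, DESeq2 and DESeq; which annotation was used, and how transcripts became genes, is not stated in them. The deposited normalised values, 24 columns, were not used.

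After rounding, the estimated counts were analysed in edgeR 4.0.16 (limma 3.58.1, R 4.3.3). filterByExpr, at a minimum count of 10 and with the 8 groups, left 16552 genes, which held at least 99.92% of the counts of each library. Libraries were scaled by TMM, and all 24 entered a robust quasi-likelihood model with a term for each of the 8 groups. P values were adjusted by Benjamini and Hochberg's method over the 16552 genes, and the threshold was 0.05. Log2 fold changes used a prior count of 2; the SE is the change without it over the square root of the F statistic. The biological coefficient of variation was 17.6%. Totals of 17.86 to 26.47 M limit the precision for Ces2f and Ces1d, which had under 10 counts in some libraries.

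Each day's comparisons were double knockout minus ApccKO, double knockout minus NlecKO, ApccKO minus Control, NlecKO minus Control and the interaction, and each genotype's days were compared; several share libraries. Alternatives were DESeq2 1.42.0, edgeR with DESeq2 size factors, genes with any count, genes of 2 CPM in 3 libraries, a replicate block, only the libraries compared, limma on log2(TPM + 1), each library left out in turn, and 3 libraries left out. Named were the carboxylesterases, Nle1, Apc, at most 3 genes of each other list per comparison, by smallest p, and the 3 genes most like each member, of which the closest is given; Lct was chosen after its values were seen. The members and lists were chosen with earlier results of these data known. Simulated data were used to test the procedure. Shared words of 31 bases and gene order came from GENCODE M21 and promoters from RefSeq; neither served for counting.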

Additional observations from a re-analysis of the deposited data

Results flagged for a closer look

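For 4 carboxylesterase genes the estimated effect of Nle1 loss differed between crypts that had lost Apc and crypts with Apc intact on day 2, by the interaction term of the edgeR fit. The log2 differences, double knockout minus ApccKO less NlecKO minus Control, were 3.65 for Ces2f, 2.62 for Ces2g, 1.78 for Ces2e and 1.94 for Ces1c (adjusted p 8e-04, 0.00032, 0.049 and 0.02). The same term was called for Nfe2l2, at 1.13, Gata4, at 0.63, and Ahr, at 0.66. Of these, Ces2f and Ces2g passed in 20 of 20 alternatives and Ces2e in 5 of 20. The call of Ces1c was lost in 5 of 20. The calls of Ces2e and Ces1c thus rest on the settings and libraries used.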

How the results depend on the processing

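Of 56 calls of the 9 genes, 40 were made in every alternative; of the results not called, 35 were recomputed gene by gene and passed the threshold in 8 of their alternatives together, and the others were followed only in the counts. Counts of the 9 genes that moved were as follows. For NlecKO minus Control on day 2, 2 were higher, against 0 with only the libraries compared, 1 by limma on TPM and 1 to 3 with 1 library left out. For the double knockout minus ApccKO on day 1, 3 were higher, against 0 without the 3 libraries that stand apart. The interaction of day 1 and the fall of NlecKO between the days had 0, against 1 each in DESeq2. ApccKO had 6 lower on day 2 than on day 1, against 3 with only the libraries compared, 0 without those 3 libraries and 2 to 7 with 1 left out; the double knockout had 1, against 2 in DESeq2 and 1 to 2 with 1 left out. The cause was not tested. Some values that were not called changed sign with 1 library left out: Ces2a in NlecKO minus Control on day 1 (-0.14 to 0.74), Ces1d (-0.85 to 0.03), Ces1f (-0.36 to 0.07) and Ces1g (-0.17 to 0.61) on day 2, Ces2c in the double knockout minus ApccKO on day 1 (-0.06 to 0.99), Ces1d (-0.48 to 0.66) and Ces1g (-0.10 to 0.13) on day 2, and Ces1d (-0.12 to 1.14) and Ces1g (-0.60 to 0.17) in the interaction of day 2. Ces1g in the double knockout minus ApccKO on day 2 was also -0.04 with the strict filter, -0.06 by limma on TPM, -0.03 with only the libraries compared and -0.00 with the replicate block. The main fit did not treat the replicate numbers as pairs. Of 36 same-numbered pairs 11 correlated over 0.1 (-0.266 to 0.258). Differently numbered pairs were not compared, so this cannot show whether the numbers pair the samples. With the replicate block 2 members were higher in the double knockout minus ApccKO on day 1 and 2 in the interaction of day 2, and the other counts were unchanged. Calls over all genes also moved by more than 1.5 times. For NlecKO minus Control there were 411 on day 1, against 6 with only the libraries compared, 266 with no filter, 800 in DESeq2 and 29 to 1159 with 1 library left out, and 2581 on day 2, against 279 with only the libraries compared and 1206 to 2818 with 1 left out. For the double knockout minus ApccKO on day 1 there were 1762, against 535 with only the libraries compared, 33 without the 3 libraries and 600 to 2147 with 1 left out. The interaction had 2 on day 1 (44 in DESeq2) and 868 on day 2 (374 to 1222 with 1 left out). Between the days, ApccKO had 1875 (34 without the 3 libraries, 861 to 1874 with 1 left out), the double knockout 1075 (454 with only the libraries compared, 656 by limma, 254 to 1183 with 1 left out), Control 27 (142 in DESeq2, 5 with only the libraries compared, 0 to 82 with 1 left out) and NlecKO 6 (73 in DESeq2, 1 with only the libraries compared, 0 to 194 with 1 left out). Depth limits Ces2f in ApccKO, at 1 to 8 counts.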
